A study of Mus musculus with 4 samples.

Results

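Of the 10402 binding sites called for the glucocorticoid receptor (GR) in PDGFRa+ adipose progenitors, 457 lay in endogenous retroviruses of the families ERVK and ERV1. These were the autosomal peaks annotated as intron or intergenic whose detailed annotation named an LTR repeat of either family. They made up 4.39% of the list (95% Wilson interval 4.02 to 4.80), and 44.9% of the 1018 LTR peaks chosen by the same chromosome and annotation limits. The choice used position and repeat name only, not the peak score.

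Endogenous retroviruses are remnants of retroviral infections of the germ line. A complete copy carries an internal part with the viral genes between a pair of long terminal repeats (LTRs), and the LTRs hold the promoter and enhancer. Many copies have lost the internal part by recombination and persist as solitary LTRs. ERVK holds mouse families such as the intracisternal A particles (IAP), the early transposons (ETn) and the mouse mammary tumour virus (MMTV), whose LTR is a classical target of GR. ERV1 holds the relatives of murine leukaemia virus, the VL30 elements and MURVY, a family first described from the mouse Y chromosome. In most cells these elements are kept silent by histone and DNA methylation, which zinc finger proteins of the KRAB type direct to them.

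GR was immunoprecipitated from C57BL/6 adipose progenitors of 2 kinds, CD137+ and PDGFRa+, and the DNA was sequenced. Cells had been isolated by MACS, grown, differentiated with an adipogenic cocktail and given dexamethasone, a synthetic glucocorticoid, at 1 µM. Each kind had 1 immunoprecipitate and 1 input, and all 4 libraries came from treated cells, so there was no untreated control. The labels name the fat source as SAT or VAT without saying which gave which cells, and the number of animals is not stated. The extraction text speaks of embryonic cells, which does not match the adipose source. All values below come from the peak list of the PDGFRa+ immunoprecipitate. With 1 library there is no replicate check, peaks of a library are not replicates, and no p-value was computed. Wilson intervals cover counting error only, and the read depth is unknown.

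The 457 peaks were spread over 132 element names. ERVK held 370 of them (81.0%, 77.1 to 84.3) and ERV1 held 87 (19.0%, 15.7 to 22.9). LTRs accounted for 279 peaks (61.1%) and internal parts, whose names contain "-int", for 178 (38.9%, 34.6 to 43.5). By the start of the name, RLTR elements held 142 peaks, RMER elements 129 and IAP elements 75. ETn and MMETn elements held 27, and MuLV, MURVY and MuRRS elements together held 18. IAP peaks lay mostly in internal parts, 58 of 75 (77.3%, 66.7 to 85.3). RLTR and RMER peaks lay mostly in LTRs, with 24 of 142 and 15 of 129 in internal parts. The number of copies of each element in the genome was not used here, so these counts show where the peaks lay and not a preference for an element.

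Names with 10 or more peaks numbered 8 and held 108 in all, while 43 names held 1 each. IAPEy-int led with 24 peaks, followed by IAPEz-int and RMER19B with 15 each and RMER6A with 14. MMERVK10C-int, MMETn-int, RMER5 and RMER6C had 10 each. By gene context, RMER6A peaks were intronic in 7 of 14 cases and RMER19B peaks in 7 of 15, whereas all 10 RMER5 peaks and 9 of 10 RMER6C peaks were intergenic, counts too small to tell the names apart.

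Each peak carries the authors' score, whose scale is not stated, and which is used here only to rank peaks within this list. The ERVK and ERV1 peaks had a median score of 38 (exact 95% interval 33 to 41) and ranged from 20 to 192. Scores in the whole list ranged from 20 to 43344. The median was 33 in the whole list, in ERVL and MaLR peaks, in LINE peaks and in intron or intergenic peaks outside repeats, each with an interval of 33 to 37. The intervals overlap, so the typical score was not set apart. The upper end differed more. A score of 50 or more was reached by 68 of 457 peaks (14.9%, 11.9 to 18.4), against 8.88% of all peaks (8.35 to 9.44). It was reached by 36 of 560 ERVL and MaLR peaks (6.43%, 4.68 to 8.77), 123 of 1672 LINE peaks (7.36%, 6.20 to 8.71) and 405 of 5660 peaks outside repeats (7.16%, 6.51 to 7.86). High scores were not particular to ERVK and ERV1. The 2053 peaks in none of these groups reached 50 in 14.2% (12.8 to 15.8), with 24 of 29 satellite peaks (82.8%) and 102 of 263 intron or intergenic peaks on the sex chromosomes (38.8%) among them. Also among them, rRNA repeats reached 50 in 12 of 17 peaks (70.6%), simple repeats in 24 of 141 (17.0%, 11.7 to 24.1) and low complexity sequence in 8 of 52 (15.4%, 8.01 to 27.5). SINE peaks, at 6.88% (5.24 to 8.98), and DNA transposon peaks, at 5.93% (3.03 to 11.3), had lower shares. At a score of 40 or more the share was 47.7%, close to the 45.8% of all peaks. The cut of 50 lies just above many tied peaks. A score of 49 ranked 925 in the list, and the next lower score of an ERVK or ERV1 peak, 46, ranked 2210. The contrast in high scores, here and below, therefore depends on the cut, and a cut of 49 was not tested.

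**Figure D1:**
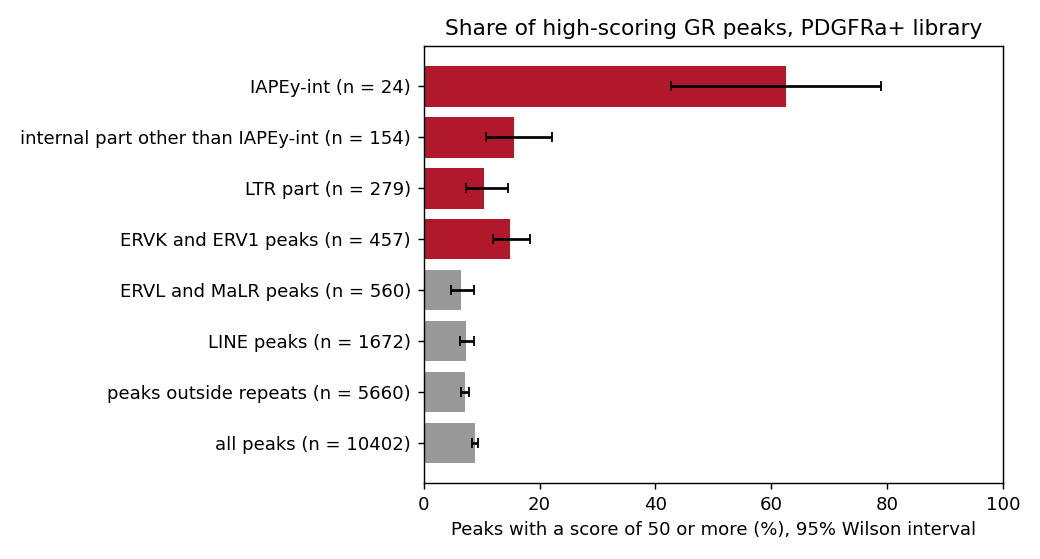
Share of peaks with a score of 50 or more (percent, horizontal axis) in ERVK and ERV1 peaks and their subsets (red) and in comparison groups (grey), with 95% Wilson intervals as bars. IAPEy-int stands at 62.5% and all ERVK and ERV1 peaks at 14.9%, and the grey groups lie between 6.43% and 8.88%. Repeat classes with higher shares, such as satellites at 82.8%, are not drawn.

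High scores were more frequent in internal parts than in LTRs, and, among names with at least 5 peaks, most frequent in IAPEy-int. Internal parts scored 50 or more in 39 of 178 peaks (21.9%, 16.5 to 28.5) and LTRs in 29 of 279 (10.4%, 7.34 to 14.5). IAPEy-int, the internal part of an IAP subfamily, did so in 15 of 24 peaks (62.5%, 42.7 to 78.8), so 1 element name supplied 15 of the 68 high scores. That name was singled out after the scores were seen, as the highest of 33, and some of its peaks lie in clusters. Its interval allows for neither. Internal parts other than IAPEy-int stood at 15.6% (10.7 to 22.1), which overlaps the interval of the LTRs. All ERVK and ERV1 peaks other than IAPEy-int stood at 12.2% (9.48 to 15.7), just above the interval of all peaks. The families had overlapping intervals, with 54 of 370 ERVK peaks (14.6%, 11.4 to 18.6) and 14 of 87 ERV1 peaks (16.1%, 9.83 to 25.2).

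IAPEy-int scores ran from 22 to 150 with a median of 54 (exact interval 34 to 75). It was the single name with at least 5 peaks whose median reached 50, and the other 32 such names had medians of 31 to 46. Its 24 peaks lay on 12 autosomes, and the 15 high ones on 9 of these. How reads matching several copies of a repeat were placed is not given. Whether the signal came from 1 locus or several was therefore not tested. The strongest IAPEy-int peak scored 150 and lay on chromosome 1 (102986898 to 102987054 as deposited), 65.4 kb upstream of the noncoding gene Gm20268. The next scored 143 on chromosome 6 (81817539 to 81817694), 28.0 kb downstream of the start of Mir7232, a microRNA gene, and 142 on chromosome 10 (54608235 to 54608414). The last of these stood 812.6 kb from the start of its nearest gene, Gm16998. Peaks scoring 100 and 50 on chromosome 16 lay 23.4 kb upstream of Olfr171 and 25.9 kb downstream of the start of Olfr201, both odorant receptor genes. All but 2 of the 24 were intergenic. Both intronic peaks scored 56. They fell in B3gat2, a glucuronyltransferase gene (intron 1 of 3), and in Galk2, a gene of the galactokinase family (intron 8 of 9).

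**Figure D2:**
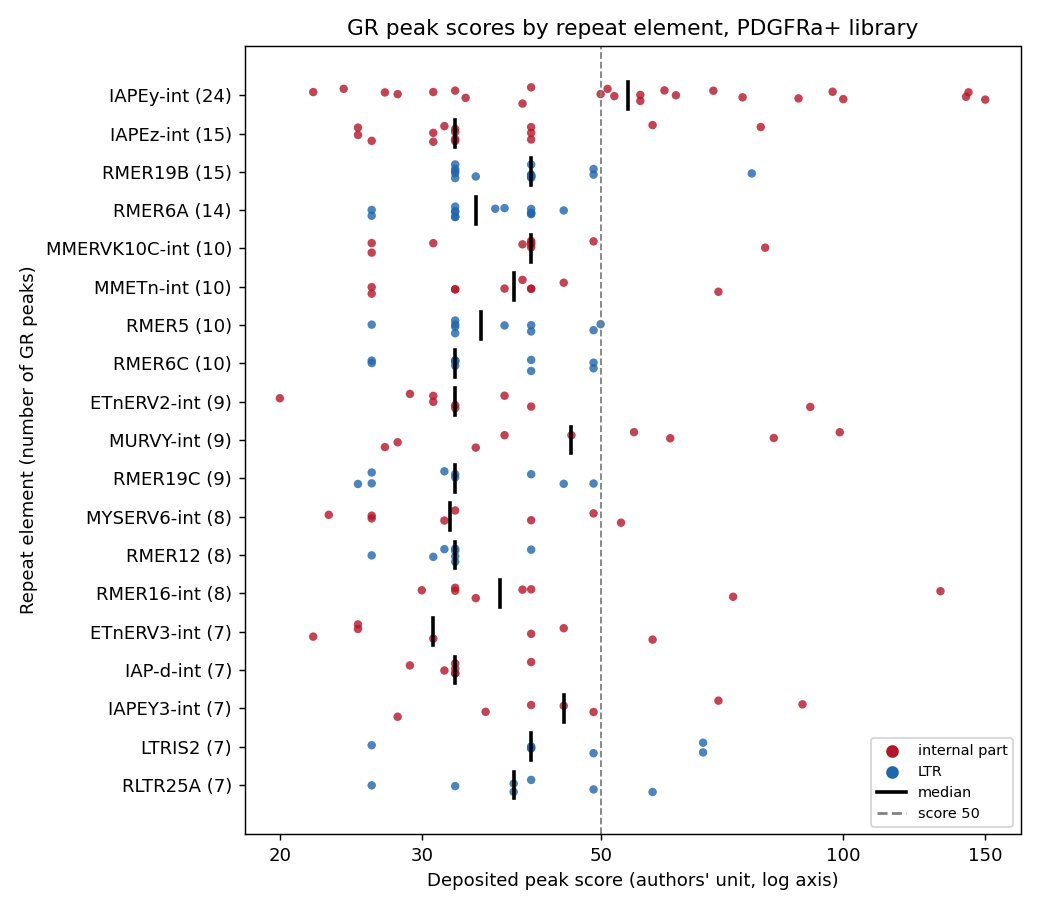
Deposited peak scores (horizontal log axis, authors' unit) of every peak in the elements with 7 or more ERVK or ERV1 peaks. Each point is a peak, red for internal parts and blue for LTRs, black ticks are medians and the dashed line marks a score of 50. IAPEy-int has its median at 54 and its highest peak at 150.

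Among the other IAP names, IAPEz-int, with 15 peaks, ran from 25 to 79 with a median of 33, and 2 of the 15 reached 50 (13.3%, 3.74 to 37.9). The interval of IAPEz-int does not overlap that of IAPEy-int, but IAPEy-int was picked as the highest name, so this describes the list and is no test. IAPEY3-int had 7 peaks between 28 and 89 with a median of 45, and IAPEY_LTR had 5 between 22 and 80 with a median of 41. Over all names beginning with IAPEy or IAPEY, 19 of 40 peaks reached 50 (47.5%, 32.9 to 62.5). The remaining IAP names, without IAPEz-int, had 20 peaks with a median of 33, and 5 of them reached 50 (25%, 11.2 to 46.9), an interval that overlaps that of IAPEy-int. These included both IAPLTR3 peaks, at 51 and 87, and the IAPLTR4 peak at 110.

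Of the other frequent internal parts, MMERVK10C-int ran from 26 to 80 with a median of 41 and MMETn-int from 26 to 70 with a median of 39. Each had 1 peak of 10 at 50 or more. RMER16-int had 8 peaks with a median of 37.5, of which 2 stood apart at 132 and 73. Among the LTRs, RMER19B scored 33 to 77 with a median of 41, RMER5 26 to 50, RMER6C 26 to 49 and RMER6A 26 to 45. RMER19B and RMER5 had 1 peak each at 50 or more, and RMER6A and RMER6C had 0.

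In ERV1, MURVY-int had 9 peaks with scores from 27 to 99 and a median of 46, and 4 reached 50. The highest ERV1 scores were a pair of RLTR5_Mm peaks at 192 and 119, out of 3 peaks in that LTR. MMTV-int had 1 peak, with a score of 33, in intron 9 of 14 of Sytl3, a synaptotagmin-like gene (chromosome 17, 6922032 to 6922177). It was singled out after its value was seen, because the LTR of MMTV is a classical target of GR. This peak, however, was annotated to the internal part and not to the LTR. MMVL30-int had 2 peaks with scores of 45 and 26, 4.15 kb upstream of Rbm12b1 and 2.14 kb upstream of Setdb1.

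The 20 highest ERVK and ERV1 peaks ran from 192 to 80. Internal parts held 12 of them, IAPEy-int 6 and ERV1 4, and 17 were intergenic. The highest of all, at 192, lay in RLTR5_Mm on chromosome 15 (12891502 to 12891706), 137.0 kb downstream of the start of Drosha, the nuclease that begins microRNA processing. It ranked 38 of 10402 in the list. The second RLTR5_Mm peak, at 119, lay in intron 10 of 23 of Cmtr1, a cap methyltransferase gene, although the list named Ccdc167 as nearest. RMER16-int reached 132 on chromosome 1, 851.3 kb from the start of Tsn, the gene of translin. RLTR11A reached 113 at 117.6 kb from the start of Vmn1r238, a vomeronasal receptor gene, and IAPLTR4 reached 110 at 335.6 kb from the start of Ajap1.

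MURVY-int followed with 99 upstream of Wdr5, whose protein is a subunit of histone methyltransferase complexes, and with 82 at 1207 kb upstream of Adgrl3, a latrophilin gene. IAPEy-int had 97 at 10.3 kb from the start of the noncoding gene Gm34637 and 88 at 51.1 kb from that of Gm8267. ETnERV2-int reached 91 at 45.1 kb from the start of the sulfotransferase gene Sult3a2, and IAPEY3-int reached 89 at 19.8 kb upstream of Ccr2, a chemokine receptor gene. RLTR13B4 reached 88 at 347.9 kb from the start of Nmbr, the neuromedin B receptor gene. IAPLTR3 reached 87 in intron 2 of 11 of Slc22a22, an organic anion transporter gene. The last 3, all at 80, were IAPEY_LTR at 634.2 kb from the start of A430085M09Rik, RMER17A in intron 2 of 4 of the zinc finger gene Zfp979, and MMERVK10C-int at 6.24 kb from the start of Gm20594. Apart from the last, these peaks stood over 10 kb from the start site named for them. Of the 100 highest scores of the whole list, 10 were ERVK or ERV1 peaks (10%, 5.52 to 17.4). Among the other peaks of the list the share was 447 of 10302 (4.34%, 3.96 to 4.75).

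Peak width moved with the score. The least width of the list, 146 bp, was shared by 290 of the 457 peaks (63.5%, 58.9 to 67.7), against 71.9% of all peaks and 75.2% of ERVL and MaLR peaks (71.4 to 78.6). IAPEy-int had 6 of 24 peaks at the least width, and MURVY-int 0 of 9. Among peaks of the least width, 6.21% of ERVK and ERV1 peaks reached 50 (3.96 to 9.60), against 4.49% of all peaks (4.04 to 4.98), and these intervals overlap. Among wider peaks the shares were 29.9% (23.5 to 37.3) and 20.1% (18.7 to 21.6). The part of width in the difference in high scores was not tested. The widths of IAPEy-int peaks reached 377 bp, in a peak with a score of 22.

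Some peaks came in groups. Within 10 kb of another ERVK or ERV1 peak lay 23 of 457 (5.03%, 3.38 to 7.44), in 10 clusters, 8 of them pairs. By the same measure within each group, the share was 10.5% of all peaks, 1.79% of ERVL and MaLR peaks (0.973 to 3.26), 2.99% of LINE peaks (2.28 to 3.92) and 5.55% of peaks outside repeats. The number of peaks in a group bears on this share, so the groups cannot be ranked by it. In 9 of the 10 all peaks had the same element name, and 8 consisted of internal parts alone. Neighbouring starts were 374 to 4253 bp apart, and no cluster spanned more than 4720 bp. Of the IAPEy-int peaks 10 of 24 were in a cluster (41.7%, 24.5 to 61.2), against 13 of the other 433 (3.002%, 1.76 to 5.07). The deposited annotation gives no element borders, so whether the peaks of a cluster share 1 insertion was not tested.

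Clusters of more than 2 peaks numbered 2. On chromosome 2 (27353310 to 27358271 as deposited), 4 MURVY-int peaks with scores of 99, 46, 35 and 55 stood 17.3 to 12.5 kb upstream of Wdr5. They held 4 of the 9 MURVY-int peaks, and 2 of that element's 4 high scores. On chromosome 14 (45290668 to 45293734), 3 IAPEy-int peaks scored 27, 28 and 88, with Gm8267 as the nearest gene. The pair assigned to Gm16998 was the single cluster in which more than 1 IAPEy-int peak was high, with 75 and 142 at 1088 bp from each other.

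**Figure D3:**
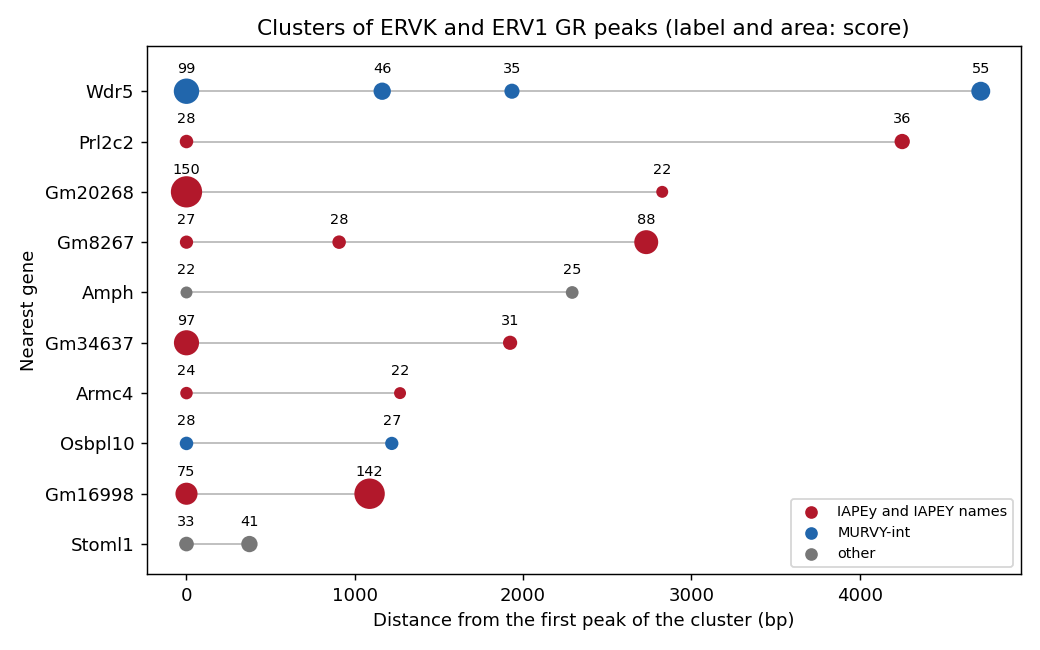
The 10 clusters of ERVK and ERV1 peaks, named by nearest gene, with the distance of each peak from the first of its cluster in bp. Point area and label give the score, red marks IAPEy and IAPEY names, blue MURVY-int and grey others. Scores within a cluster differ, from 150 and 22 for Gm20268 to 28 and 27 for Osbpl10.

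Most ERVK and ERV1 peaks lay outside genes. Intergenic sequence held 346 (75.7%, 71.6 to 79.4), against 59.4% of all autosomal intron or intergenic peaks (58.4 to 60.4), the annotations to which the choice of peaks was limited, and 54.1% of peaks outside repeats (52.8 to 55.4). ERVL and MaLR peaks, at 69.6% (65.7 to 73.3), and LINE peaks, at 72.9% (70.7 to 74.98), had overlapping intervals with them, so an intergenic place was shared by these repeat classes. IAP peaks were intergenic in 67 of 75 cases (89.3%, 80.3 to 94.5) and RLTR peaks in 102 of 142 (71.8%, 63.9 to 78.6). The median distance to the stated start site was 52.9 kb (46.1 to 60.8), close to the 49.9 kb of peaks outside repeats (47.1 to 52.8) and under the 88.1 kb of LINE peaks (78.4 to 95.4). Upstream of the start site lay 50.5% (46.0 to 55.1), against 41.6% of peaks outside repeats (40.4 to 42.9). ERVL and MaLR peaks, at 52.0% (47.8 to 56.1), and LINE peaks, at 48.6% (46.2 to 51.0), had intervals that overlap it.

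The share of high scores by distance rested on few peaks. Within 10 kb of a start site lay 67 peaks (14.7%, 11.7 to 18.2), and 3 of them scored 50 or more (4.48%, 1.53 to 12.4). At 10 to 100 kb the count was 37 of 239 (15.5%, 11.4 to 20.6), at 100 to 500 kb it was 17 of 109 (15.6%, 9.97 to 23.6), and over 500 kb it was 11 of 42 (26.2%, 15.3 to 41.1). The interval within 10 kb overlaps those up to 500 kb and not that over 500 kb. In peaks outside repeats the shares stayed between 6.57% and 8.40% over the same distances. Without IAPEy-int the shares of ERVK and ERV1 peaks were 4.55% (1.56 to 12.5), 12.5%, 13.3% and 21.1% (11.1 to 36.3), and the intervals within 10 kb and over 500 kb then overlapped.

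**Figure D4:**
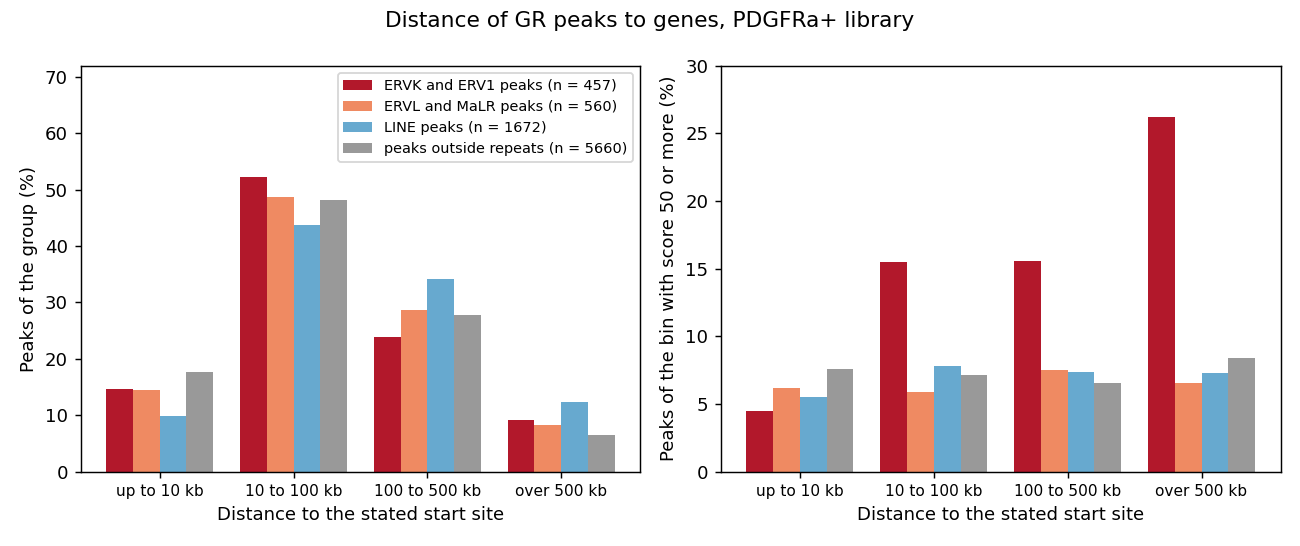
Left, the percentage of each group's peaks by distance to the stated start site. Right, the percentage of peaks in each distance bin with a score of 50 or more. ERVK and ERV1 peaks (red) go from 4.48% within 10 kb to 26.2% over 500 kb, and peaks outside repeats (grey) stay between 6.57% and 8.40%.

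The 3 high peaks within 10 kb were MMERVK10C-int at 80, 6.24 kb from the start of Gm20594, RMER17C-int at 58 in intron 2 of 7 of Fbxw22, an F-box gene, and RMER5 at 50, 1.56 kb upstream of Aph1c, which encodes a subunit of gamma-secretase. Another 6 peaks scored 49: RMER17B upstream of Ccdc105, IAPEY3-int 6.76 kb upstream of the adaptor gene Crkl, RLTR40 3.11 kb upstream of Zfp40, RMER13A 4.94 kb upstream of the tankyrase gene Tnks2, RMER17C in intron 2 of 9 of Trim55, and MuRRS4-int near Vmn1r85. The RMER17C peak was the nearest to a start site among these, at 1.25 kb. The next was the MMVL30-int peak of 45 near Rbm12b1.

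Introns held 111 peaks (24.3%, 20.6 to 28.4) of 105 genes. First introns held 27 of them (24.3%, 17.3 to 33.1), against 29.96% of all intron peaks (28.5 to 31.4). The gene whose intron held the peak differed from the listed nearest gene in 36 of 111 cases (32.4%, 24.4 to 41.6), as with Cmtr1 and Ccdc167, or Galk2 and Fgf7. Intron and intergenic peaks reached 50 in 12.6% (7.66 to 20.1) and 15.6% (12.2 to 19.8), with overlapping intervals.

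The 457 peaks had 414 nearest genes. Wdr5, with its cluster, was named by 4, and Sntg1, Brinp3, Zfp982, Gm8267, Stxbp3-ps and Grik2 by 3 each. Vomeronasal and odorant receptor genes (names in Vmn1r, Vmn2r or Olfr) were nearest to 15 peaks (3.28%, 1.999 to 5.34), against 2.01% of all peaks (1.76 to 2.30), with overlapping intervals. The share was 1.11% in peaks outside repeats (0.871 to 1.42), 1.25% in ERVL and MaLR peaks (0.607 to 2.56) and 3.35% in LINE peaks. Zinc finger genes named Zfp were nearest to 10 (2.19%, 1.19 to 3.98), against 1.54% of all peaks, with overlapping intervals. These name groups were picked after the nearest genes had been seen.

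Genes that act in silencing of retroelements were examined as a pathway. Of 39 such genes, 8 were nearest to a peak of the list, with 9 peaks (0.0865% of all peaks), and 2 of these 9 peaks lay in ERVK or ERV1. The MMVL30-int peak with a score of 26 lay 2.14 kb upstream of Setdb1, the histone methyltransferase that silences endogenous retroviruses (chromosome 3, 95163192 to 95163337). An RLTR20D peak with a score of 31 lay 16.7 kb downstream of the start of Cbx3, which encodes a heterochromatin protein (chromosome 6, 51437843 to 51437988). Both scores were below the list median of 33. The other 6 genes were Atf7ip, Hells, Cbx5, Dnmt1, Dnmt3b and Zfp708, and their 7 peaks, with scores from 25 to 58, lay outside ERVK and ERV1.

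None of the 457 peaks had a nearest gene among 30 glucocorticoid response genes, 22 adipose progenitor markers, 20 adipogenic factors or 28 Hippo and TEAD genes. In the whole list these were nearest to 0.163%, 0.173%, 0.211% and 0.25% of peaks. A count of 0 of 457 allows a share of up to 0.656%, so an absence was not detectable at this number of peaks. The CD137+ immunoprecipitate came as a table of 30 genes with a called interval. Its genes were nearest to 0.231% of all PDGFRa+ peaks and to none of the 457, which is equally within that limit.

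A GR peak other than an ERVK or ERV1 peak lay within 10 kb of 42 of the 457 (9.19%, 6.87 to 12.2). A peak of another kind lay as near to 7.32% of ERVL and MaLR peaks (5.44 to 9.78) and 5.50% of LINE peaks (4.51 to 6.70). For peaks outside repeats it was 3.71% (3.25 to 4.23). The number of peaks of another kind differs by group, so the groups cannot be ranked by this share. Counting ERVK and ERV1 neighbours too, 63 of the 457 had a neighbour at that distance (13.8%, 10.9 to 17.2). The share was 10.5% of all peaks (9.89 to 11.1), with overlapping intervals. A peak outside repeats lay within 10 kb of 23 of the 457 (5.03%, 3.38 to 7.44). The share was 4.82% for ERVL and MaLR peaks, 3.59% for LINE peaks and 5.55% for peaks outside repeats among themselves, and each of these lies within that interval. At a distance of up to 50 kb it was 96 of 457 (21.0%, 17.5 to 24.98).

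By autosome, ERVK and ERV1 made up between 3% of peaks on chromosome 12 and 6.43% on chromosome 17, with 15 of 500 and 25 of 389 peaks and overlapping intervals. On 17 of the 19 autosomes a larger share of ERVK and ERV1 peaks than of other peaks reached a score of 50. These shares rest on few peaks, and some gaps were slight. Chromosome 13 had 6.67% of 15 peaks against 6.52%, and chromosome 19 had 8.33% of 12 against 7.93%. Chromosome 14 had the widest gap, with 33.3% of 18 peaks against 6.87%, and 3 of its 6 high peaks were IAPEy-int. Chromosomes 17 and 18 had the reverse order. The median score was higher in ERVK and ERV1 peaks on 13 autosomes, equal on 4 and lower on 2.

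**Figure D5:**
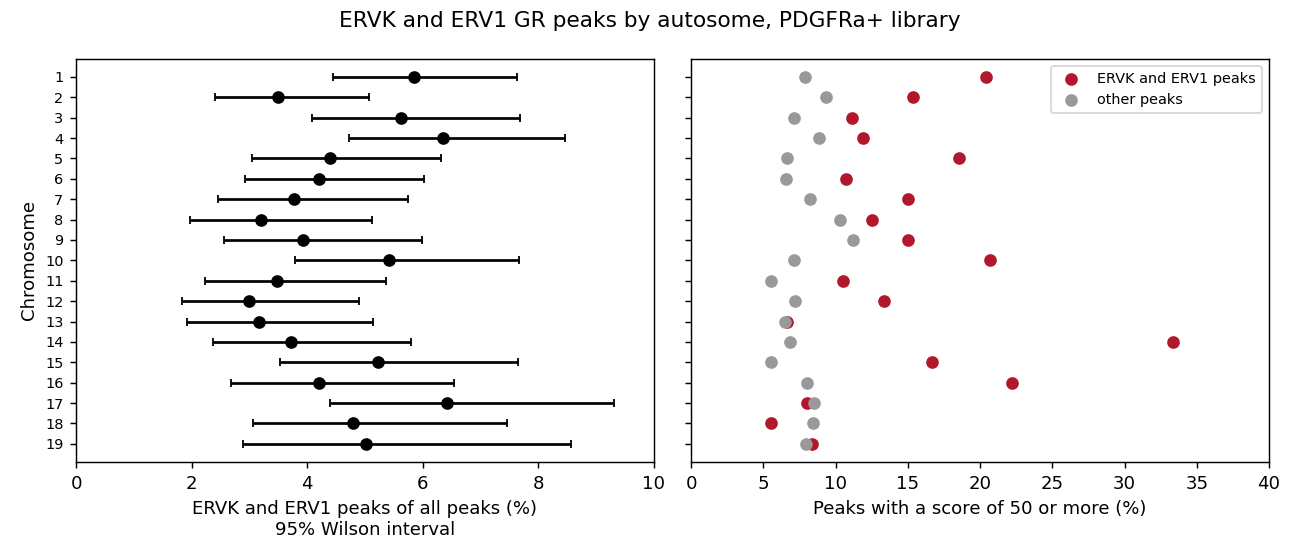
Left, ERVK and ERV1 peaks as a percentage of all peaks on each autosome, with 95% Wilson intervals, from 3% to 6.43%. Right, the percentage of peaks with a score of 50 or more in ERVK and ERV1 peaks (red) and in other peaks (grey). Red is higher on 17 of 19 autosomes, by little on chromosomes 13 and 19.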

How the data were processed

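GR immunoprecipitates and inputs of 2 cell kinds were sequenced, 4 libraries in all. Build mm10 and the tools bedtools 2.17.0, MACS2, Bowtie2, FastQC and SAMtools are listed, without settings, per the submitters' processing notes. How reads matching several copies of a repeat were placed, and whether the inputs entered peak calling, is not given in the sources used here; both bear on peaks in repeats. The PDGFRa+ list gives positions, repeat annotation and a peak score, deposited as whole numbers of unstated scale. The CD137+ table, per the file headers, gives gene names, distances and a peak signal, which was not used further. Values in both are as the authors made them.

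Start sites implied by the members' positions lay within 1 kb of a gene end in GRCm38.p6 for 33 of 457 peaks, so coordinates do not match mm10 and are printed as deposited, with the build unknown. A satellite peak outside the members has text in its end column and no width. Host genes were found from transcript accessions in RefSeq's GRCm38.p6 table. CD137+ sites were to be matched by gene and distance within 500 bp, and no member shared a gene. Shares have Wilson intervals and medians exact order-statistic intervals, computed with Python 3.11.15, pandas 2.3.3 and SciPy 1.17.1. Both were tested on simulated data. A motif search was not analysed here. No file holds expression, so the cell type was not checked by markers.

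The members and gene lists were chosen with earlier results of these data known. Named peaks were those of elements with at least 10 peaks, the 20 highest, the 10 highest within 10 kb of a start site, all with a nearest gene in a list, and clusters of at least 3. Alternatives concerned score, chromosomes, annotation, clusters and distances.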

Additional observations from a re-analysis of the deposited data

How the results depend on the processing

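Of 52 recomputed values, 42 were counted as unchanged and 10 as moved, judged by the 95% interval of the reported value. The CD137+ and gene list counts have no such interval and were counted as unchanged because they stayed equal. Several of the 10 follow from the changed limit itself, so the tally does not measure stability. Restricted to a score of 50 or more, ERVK and ERV1 made up 7.36% of 924 peaks, IAP 38.2% and internal parts 57.4% of the members, the median score was 60.5, 26.5% had the least width and 58.8% lay within 100 kb of a start site (66.96% for all). A score of 40 or more gave 47.7%, the least width alone 6.21% with a score of 50 or more, a limit of 50 kb 47.9% for start sites and 21.0% for peaks outside repeats. The addition of 12 peaks on X and Y, with scores of 23 to 96, and counting the highest peak per cluster moved no value out of its interval. The latter drops lower scores by construction, so it is no check of high shares. Admitting other gene features added no peak, so its 10 values are the reported ones and tested nothing. Alternatives on width, without IAPEy-int and on IAPEy-int were chosen after seeing the data. The highest X peak, at 96, was also IAPEy-int. No paired analysis was possible because each group has 1 library, which also left no replicate to leave out. The score's scale and the depth are unknown, so low scores cannot be told from noise. High scores in repeats were not checked either, because the placing of reads and the use of the inputs are not given.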
